A study of Mus musculus with 4 samples.

Results

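Peritubular myoid cells were taken from single-cell RNA sequencing of postnatal day 8 mouse testis by a rule on measured genes, that is, they were chosen by the UMI shares given below. Cells sorted on CD9 and THY1 to enrich germ cells were captured in droplets, in which each messenger RNA molecule receives a unique molecular identifier (UMI), so that the deposited values are UMI counts per gene and per droplet barcode. Control mice carried Cnot3 flox/flox alleles, and Cnot3-cKO mice carried the same alleles with Ddx4-creER, a Cre recombinase driven in germ cells by Ddx4 and activated by 4-hydroxytamoxifen (4OHT). Cnot3 encodes a subunit of the CCR4-NOT complex, which shortens the poly(A) tails of messenger RNAs. Injections began at postnatal day 1 in all 4 samples, 2 per genotype. The labels give a different last day for each sample, day 1 and day 2 for control and day 3 and day 4 for Cnot3-cKO, whereas the methods of the study give day 1 to day 3 for both genotypes, and which of these holds was not settled here. The labels name the control genotype wild-type. Both samples of a genotype are merged in 1 deposited matrix, which is treated here as 1 library per genotype and permits no test between genotypes. Intervals below are 95% intervals and cover counting error only.

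Of 17432 barcodes with at least 8000 UMIs and at most 20% mitochondrial UMIs, 2812 were members, 1304 of 8254 in control and 1508 of 9178 in Cnot3-cKO. The rule first kept barcodes with stromal collagen and decorin genes (Col1a1, Col1a2, Col3a1 and Dcn) at 0.5% of UMIs or more, Sertoli genes (Cst12, Cst9, Rhox8, Amh and Aard) under 0.2%, under 10 UMIs of the germ cell genes Ddx4 and Dazl, and under 3 UMIs of the cell cycle genes Mki67 and Top2a. Each kept barcode then received 3 scores, the UMI shares of Acta2, Mgp, Col4a4 and C1qtnf3 (the myoid score), of Smoc2, and of Cd34, S100a6 and Nrk, each divided by its mean over these barcodes. Members were those with the myoid score highest. The other barcodes formed 2 neighbouring classes, called Smoc2 stroma (947 control and 1184 Cnot3-cKO barcodes) and Cd34 stroma (1118 and 947). The genes of the scores therefore differed between the classes by construction, and, since classes were drawn from the same cells, every contrast between them is a description.

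Peritubular myoid cells are flat, smooth muscle-like cells that wrap the seminiferous tubule. Their contractions move fluid and sperm along the tubule, they lay down part of the basement membrane together with the Sertoli cells, and they secrete factors that act on spermatogonial stem cells, among them GDNF. The Cre driver is germ cell-specific, so these cells were not the target of the deletion.

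The median member held 14204 UMIs in control and 13240 in Cnot3-cKO, with mitochondrial shares of 5.21% in both libraries. Scrublet called 20 members (1.53%) in control and 18 (1.19%) in Cnot3-cKO doublets, and 1 barcode sequence was shared between the libraries among members and 18 among all kept barcodes. Free RNA, estimated from the Sertoli genes of the rule relative to empty barcodes, was 2.56% of the UMIs of control members and 2.30% of those of Cnot3-cKO members. The rule kept only barcodes with these genes under 0.2%, so the estimate was bounded by the rule and leaves out barcodes with more of them. Cnot3, on chromosome 7 (GRCm38, 3645268 to 3661109), was at 45.1 UMIs per 1000000 UMIs of the class (CPM) in control members and 44.4 in Cnot3-cKO members, a log2 ratio of -0.02 with an interval of -0.16 to 0.12. In germ cell barcodes, which held 10 or more Ddx4 and Dazl UMIs, Cnot3 was at 71.2 CPM in control and 39.5 CPM in Cnot3-cKO.

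The marker of the label that the rule did not use, Myh11, was higher in members than in the other stromal classes. It went with the rule gene Acta2 across members, as given below, so it is not independent of the rule. Myh11, the smooth muscle myosin heavy chain on chromosome 16 (14194535 to 14291372), was at 346 CPM in control members and 375 CPM in Cnot3-cKO members. It was at 47.1 and 56.4 CPM in Smoc2 stroma, at 13.3 and 16.0 CPM in Cd34 stroma, and under 2 CPM in Sertoli barcodes of both libraries. After each barcode was thinned to 8000 UMIs, 79.4% of control and 79.3% of Cnot3-cKO members held a Myh11 UMI (88.2% and 88.3% before thinning). In the thinned data the share was 20.6% and 23.3% in Smoc2 stroma and 5.55% and 5.39% in Cd34 stroma. Sertoli barcodes, at a median of 13324 and 12797 UMIs, gave 0.585% and 0.666%, which was taken as the background.

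Of the genes used by the rule, Acta2 (smooth muscle actin, chromosome 19) was at 2680 CPM in control members and 2168 CPM in Cnot3-cKO members. Mgp, an inhibitor of matrix calcification, was at 2647 and 2656 CPM, Col4a4, a chain of the basement membrane collagen network, at 1532 and 1555 CPM, and C1qtnf3, a secreted C1q-like protein, at 521 and 463 CPM. These values chose the members and carry no further weight. The plot of UMIs per barcode shows that the 3 non-rule genes in it, Myh11, Tagln and the laminin gene Lamc3, lay higher in the members than in the other classes in both libraries, with ranges that overlapped between single barcodes.

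**Figure D1:**
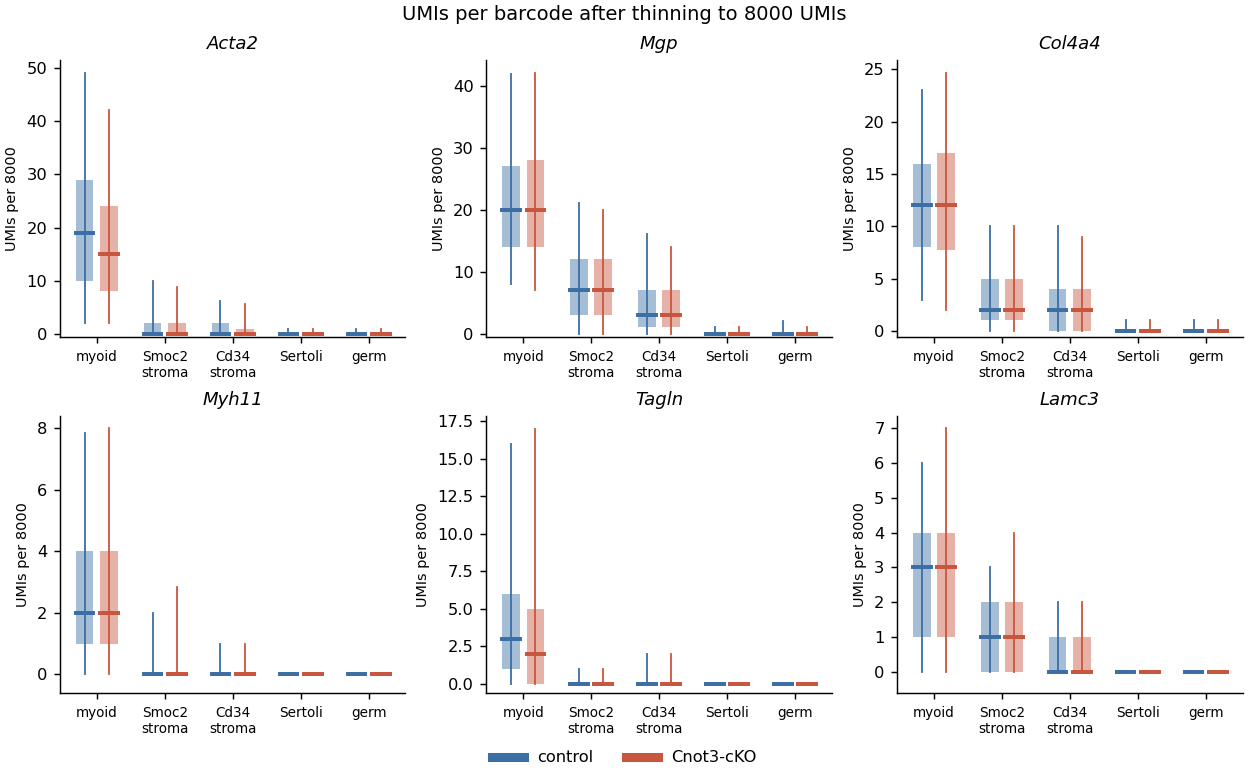
UMIs per barcode after thinning to 8000 UMIs (vertical axis, linear) in 5 classes of barcodes (horizontal axis), control in blue and Cnot3-cKO in red. Thick lines are medians, boxes span the 25th to 75th percentile and thin lines the 5th to 95th percentile over barcodes. Median Acta2 was 19 UMIs in control and 15 in Cnot3-cKO members, and median Myh11 was 2 in both.

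Members differed in how far the myoid score led. The myoid score was at least 2 times the next score in 852 control members (65.3%) and 935 Cnot3-cKO members (62.0%), and its median lead was 2.42 times and 2.36 times. The 50 members just inside the boundary, with leads of up to 1.12 times in control, held Myh11 at 188 CPM, and the 50 barcodes just outside held it at 180 CPM. In Cnot3-cKO the values just inside and just outside were 193 and 157 CPM. The boundary thus ran through barcodes of intermediate Myh11 level. These barcodes were picked for lying next to the cut of a score that holds Acta2. Their levels therefore cannot show whether the classes are separate groups.

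Within the members, Myh11 was higher in each higher band of the myoid score in both libraries, and Tagln was so in control. Scores are relative to the mean of the stromal barcodes, and the bands were under 1, 1 to 2, 2 to 3 and 3 or more. Myh11 was at 100.1, 258, 442 and 613 CPM over these bands in 41, 675, 494 and 94 control members, and at 134, 299, 494 and 856 CPM in 90, 852, 509 and 57 Cnot3-cKO members. Tagln, which encodes the actin-binding protein transgelin, was at 102, 324, 758 and 1738 CPM in control. In Cnot3-cKO it was at 653, 360, 709 and 1824 CPM, so that the lowest band lay above the next one. Across thinned control members, Acta2 and Tagln had a Spearman correlation of 0.60 and Acta2 and Myh11 of 0.51. The Cnot3-cKO members gave 0.60 and 0.49. Acta2 is a gene of the score that chose these barcodes. These barcodes share a library each, so the correlations describe 1304 and 1508 barcodes and carry no test.

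Genes of the contractile apparatus were the group most widely higher in myoid cells. Of 26 contractile genes listed, 24 had at least 100 UMIs over the stromal classes in both libraries, and 16 of these were at least 2-fold higher in members than in both other classes in both libraries, against 2.47% of the 11397 genes compared. The classes were drawn from the same cells, so nothing is read from the count against this share. Against Smoc2 stroma alone 20 of the 24 were higher (3.24% of all genes) and 1 was lower (3.03%), and against Cd34 stroma alone 17 were higher (4.85%) and 1 was lower (5.9%). The median log2 ratio of the list was 1.60 over Smoc2 stroma and 1.5 over Cd34 stroma in control, and 1.38 and 1.56 in Cnot3-cKO, where the medians over all genes lay between -0.08 and -0.00.

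Tagln was at 576 and 547 CPM in members, against 32.3 and 32.1 CPM in Smoc2 stroma and 50.5 and 47.3 CPM in Cd34 stroma. Actg2, the enteric form of smooth muscle actin, and Cnn1, the smooth muscle calponin, were low, at 14.0 and 13.1 CPM for Actg2 and at 7.38 and 13.7 CPM for Cnn1, yet neither exceeded 1.29 CPM in Smoc2 or Cd34 stroma of either library. The share of members with a Cnn1 UMI after thinning was 5.29% in control and 7.96% in Cnot3-cKO (7.67% and 11.1% before thinning), against 0.0688% and 0.0689% of Sertoli barcodes. Cnn1 was thus detected in few members at this depth.

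Genes that regulate myosin were higher as well. Mylk, the kinase that switches myosin on, was at 513 and 512 CPM in members, at 207 and 202 CPM in Smoc2 stroma and at 156 and 160 CPM in Cd34 stroma. The myosin regulatory light chain Myl9 was at 997 and 932 CPM, against 472 and 434 CPM in Smoc2 stroma. Ppp1r12b, a subunit of the phosphatase that switches myosin off, was at 67.3 and 75.8 CPM, against 27.6 and 29.6 CPM in Smoc2 stroma. Members with values under the 2-fold limit included Cald1 (caldesmon), at 951 and 994 CPM against 707 and 692 CPM in Smoc2 stroma. Des, the muscle intermediate filament desmin, was at 62.4 and 50.9 CPM in members and at 70.8 and 73.4 CPM in Cd34 stroma. Synm, another intermediate filament gene, was the single listed gene lower in members than in both classes, at 3.40 and 7.04 CPM against 18.1 and 18.8 CPM in Smoc2 stroma and 24.0 and 26.5 CPM in Cd34 stroma.

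**Figure D2:**
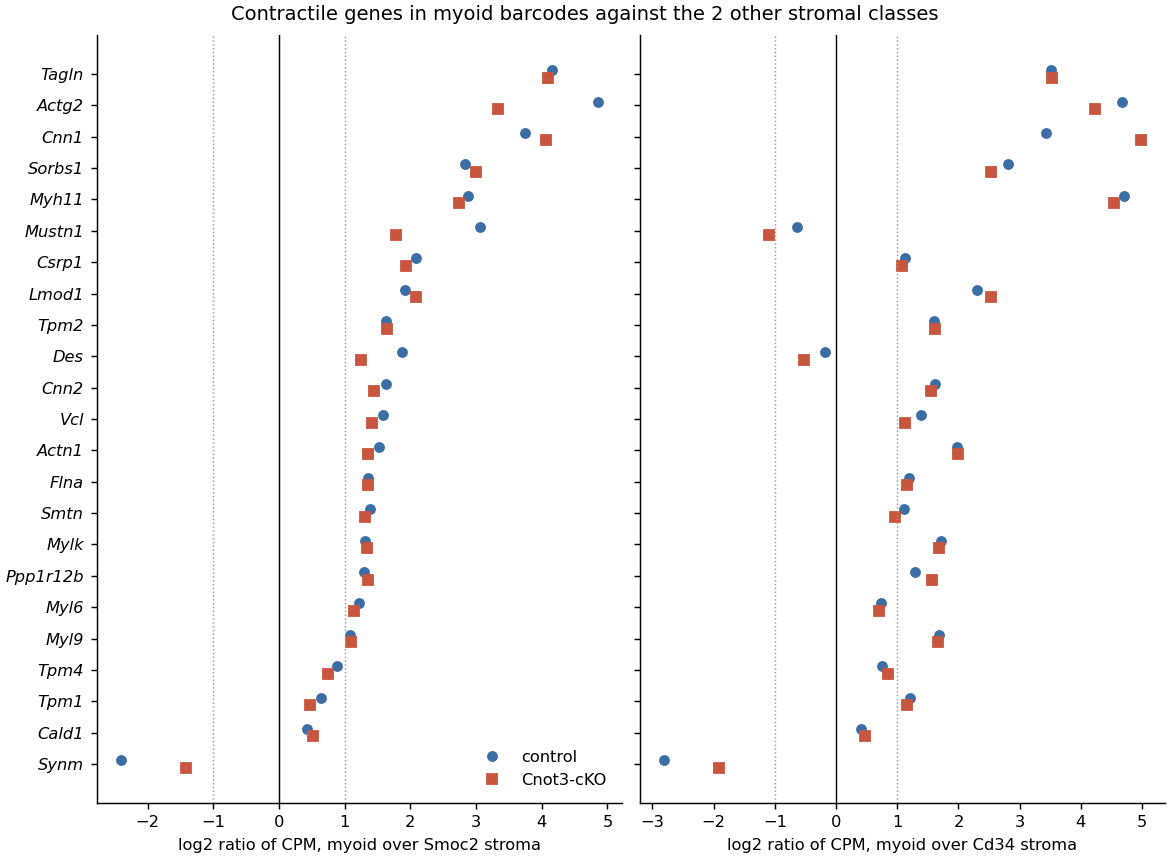
Log2 ratio of CPM of contractile genes (rows) in members over Smoc2 stroma (left) and over Cd34 stroma (right), 1 point per library, circles for control and squares for Cnot3-cKO. Dotted lines mark 2-fold. Kcnmb1, which had no UMI in Cd34 stroma, is not drawn. Actg2, Tagln and Cnn1 lay furthest to the right in the left panel and Synm furthest to the left in both.

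Serum response factor (SRF) with its partner myocardin drives smooth muscle genes through a promoter element called the CArG box. Myocd, which encodes myocardin, was at 31.7 and 29.6 CPM in members, at 8.92 and 4.53 CPM in Smoc2 stroma and at 1.38 and 0.610 CPM in Cd34 stroma, and 20.3% and 19.4% of thinned members held a Myocd UMI (31.9% and 29.0% before thinning) against 0.103% and 0.0689% of Sertoli barcodes. Of the 9 genes of this list, Myocd, Mef2c and Nexn were at least 2-fold higher than in both classes in both libraries, beside 2.47% of all genes. Srf itself was at 28.6 and 31.9 CPM in members and at 18.7 and 19.2 CPM in Smoc2 stroma. The MRTF genes Mkl1 and Mkl2, which encode further SRF partners, were at 7.38 and 8.45 CPM and at 22.8 and 22.7 CPM in members, against 13.6 and 13.7 CPM and 27 and 26.9 CPM in Cd34 stroma.

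Promoters were read from RefSeq (GRCm38.p6), 250 bases before to 50 bases after the start, and searched for the CArG box, which is its own reverse complement in pattern, so that both strands were covered. Of 22 contractile genes with a promoter among those read, 4 (18.2%) held the box, Cnn2, Myl9, Myl6 and Vcl, against 488 of 27025 promoters (1.81%). Tagln, Myh11 and Actg2 had no promoter among those read, so they were not searched. Of the rule genes, 3 had a promoter and 0 of these held the box. Of the 281 genes at least 2-fold higher in members than in both classes, 192 had a promoter, and 10 of these (5.21%) held the box. A match describes letters, and its absence says only that they were not in this window. The stretches around the boxes of 4 contractile genes and of Srf are shown 5′ to 3′ on the strand of the gene, since they carry the element in genes whose levels are given here. Capitals mark the box. The windows were chr2:156775278-156775337 (plus strand) for Myl9, chr10:79988519-79988578 (plus) for Cnn2, chr10:128493025-128493084 (minus) for Myl6, chr14:20929148-20929205 (plus) for Vcl and chr17:46556190-46556269 (minus) for Srf, all before the RefSeq start used. In GENCODE, Myl6 spans 128490860 to 128494145, so its window lies inside the gene by that annotation.
Myl9: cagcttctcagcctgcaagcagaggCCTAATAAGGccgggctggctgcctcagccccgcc
Cnn2: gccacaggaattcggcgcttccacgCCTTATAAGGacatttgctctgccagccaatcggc
Myl6: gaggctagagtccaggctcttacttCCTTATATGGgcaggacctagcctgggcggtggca
Vcl: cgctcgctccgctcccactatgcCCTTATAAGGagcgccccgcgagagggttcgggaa
Srf: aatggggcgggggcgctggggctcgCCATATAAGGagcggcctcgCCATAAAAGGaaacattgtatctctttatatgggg

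Cnn2 and Vcl, whose promoter stretches are printed above, were at 342 and 286 CPM and at 71.2 and 67.9 CPM in members, against 111 and 106 CPM and 23.7 and 25.5 CPM in Smoc2 stroma. Cnn2 encodes a calponin and Vcl encodes vinculin, which anchors actin at adhesion sites. Myl6, the essential light chain of smooth and non-muscle myosin, carried a box too and was at 1650.3 and 1426 CPM in members against 989 and 875 CPM in Cd34 stroma, under the 2-fold limit there.

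Among basement membrane genes, 5 of 20 with enough UMIs were at least 2-fold higher in members than in both classes and none was that much lower, beside the 2.47% given above. Col4a3, the partner of the rule gene Col4a4, was at 386 and 394 CPM in members, at 65.2 and 70.0 CPM in Smoc2 stroma and at 66.3 and 66.4 CPM in Cd34 stroma. The main collagen IV chains Col4a1 (1599 and 1420.3 CPM) and Col4a2 (691 and 649 CPM) were also higher, while Col4a5, at 129 and 135 CPM, was nearly level with Smoc2 stroma at 115 and 121 CPM. Of the laminins, Lamc3 was at 341 and 370 CPM against 138 and 161 CPM in Smoc2 stroma, and Lama5 at 10.5 and 11.9 CPM against 3.25 and 3.59 CPM. The broadly used laminin chains Lamb1 and Lamc1 differed by log2 ratios between -0.03 and 0.52 from both classes.

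Of 24 fibrillar and elastic matrix genes, 1 was at least 2-fold higher (2.47% of all genes) and 2 were lower (2.34%). Eln, which encodes elastin, was the higher one, at 360 and 390 CPM against 96.8 and 92.9 CPM in Smoc2 stroma and 158 and 141 CPM in Cd34 stroma. Lum, the collagen-binding proteoglycan lumican, was lower, at 44.3 and 65.4 CPM against 133 and 156 CPM in Smoc2 stroma and 441 and 469 CPM in Cd34 stroma. Fbln2, a fibulin, was at 1.36 and 1.80 CPM against 14.2 and 13.9 CPM in Cd34 stroma. Mfap5, a microfibril protein, was at 8.06 and 14.6 CPM in members and at 284 and 290 CPM in Cd34 stroma, and missed the count through Smoc2 stroma in the Cnot3-cKO library.

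Receptors that bind this matrix differed for some alpha chains. Itga1, a collagen-binding integrin chain, was at 32.9 and 39.7 CPM in members, at 5.67 and 8.36 CPM in Smoc2 stroma and at 4.20 and 3.92 CPM in Cd34 stroma. Itga7, a laminin-binding chain of muscle, was at 10.2 and 9.56 CPM against 1.59 and 1.53 CPM in Smoc2 stroma, and Itga8 at 8.84 and 8.98 CPM against 0.346 and 0.765 CPM. With Itga3, 4 of 13 genes of the list were at least 2-fold higher than in both classes, beside 2.47% of all genes. The shared beta chain Itgb1, at 388 and 373 CPM, was nearly level with Cd34 stroma at 395 and 379 CPM.

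**Figure D3:**
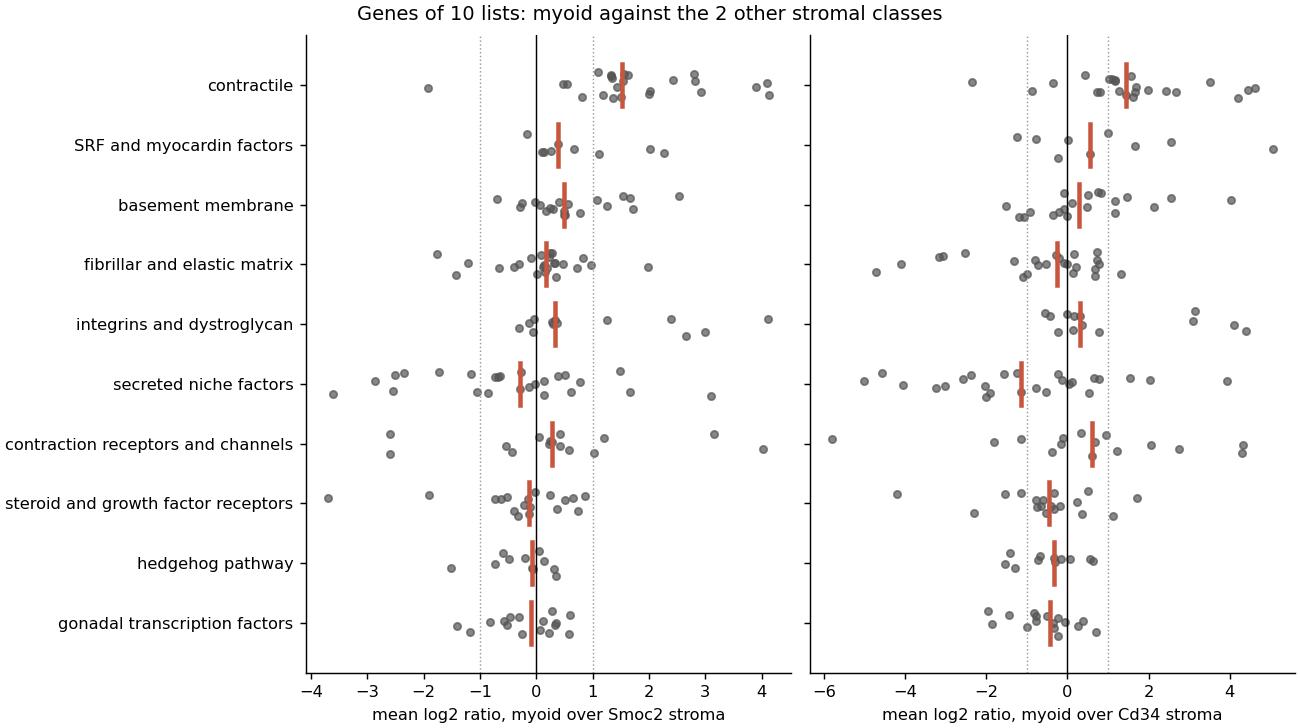
Mean of the 2 libraries' log2 ratios of CPM in members over Smoc2 stroma (left) and over Cd34 stroma (right), 1 point per gene with at least 100 UMIs, in 10 gene lists (rows). Red bars are the list medians and dotted lines mark 2-fold. The contractile list is shifted to the right in both panels, and the secreted niche factors spread to the left over Cd34 stroma.

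Few of the listed secreted niche factors were at least 2-fold higher in the members than in both other stromal classes. Of 25 genes, 2 were at least 2-fold higher than in both classes, against 2.47% of all genes, and 6 at least 2-fold lower, against 2.34%. Gdnf, the growth factor that maintains spermatogonial stem cells, was at 24.4 CPM in control and 27.7 CPM in Cnot3-cKO members, at 7.74 and 8.65 CPM in Smoc2 stroma and at 1.51 and 1.92 CPM in Cd34 stroma. Sertoli barcodes, the other known source, held it at 22.6 and 31.4 CPM. After thinning, 15.6% and 18.8% of members held a Gdnf UMI (27% and 27.9% before), against 1.13% and 1.47% of germ cell barcodes. Igfbp5, an IGF-binding protein, was at 135 and 91.2 CPM in members against 13.8 and 12.3 CPM in Smoc2 stroma.

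Csf1, a cytokine linked to stem cell self-renewal, was at 11.0 and 12.5 CPM in members, at 18.2 and 19.3 CPM in Smoc2 stroma and at 27.4 and 27.8 CPM in Cd34 stroma. Cxcl12, a chemokine that guides stem cells, was at 126 and 138 CPM, against 212 and 224 CPM and 378 and 406 CPM. Both were therefore lowest in the members of the 3 stromal classes, in each library. The genes at least 2-fold lower than in both classes were Angpt1, Fgf7, Inhba, Nrg1, Vegfa and Wnt6. Inhba, which encodes the activin A subunit, was at 23.7 and 22 CPM in members and at 166 and 168 CPM in Smoc2 stroma, and Nrg1, a ligand of ERBB receptors, was at 1.94 and 2.91 CPM against 28.5 and 29.4 CPM.

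Among genes of contraction signalling, Ednrb, Prkg1 and Pde5a were at least 2-fold higher and Agtr2 lower, of 15 with enough UMIs, beside 2.47% and 2.34% of all genes. Ednrb, the endothelin B receptor, was at 41.7 and 32.0 CPM in members, at 4.42 and 3.82 CPM in Smoc2 stroma and at 1.31 and 2.62 CPM in Cd34 stroma. Ednra, the endothelin A receptor, was at 141 and 138 CPM in members, nearly level with Smoc2 stroma at 139 and 132 CPM, while Cd34 stroma held 305 and 308 CPM. Prkg1, the cGMP-dependent kinase that relaxes smooth muscle, was at 13.1 and 16.2 CPM against 0.760 and 1.06 CPM in Smoc2 stroma. Oxtr, the oxytocin receptor, was at 12.5 and 15.8 CPM in members but at 79.1 and 91.7 CPM in Smoc2 stroma.

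Of 18 steroid and growth factor receptors none passed the limit upwards against both classes, and Pgr and Egfr passed it downwards, beside 2.47% and 2.34% of all genes. Pgr, the progesterone receptor, was at 2.51 and 4.81 CPM in members against 44.2 and 45.6 CPM in Smoc2 stroma and 64.7 and 62.9 CPM in Cd34 stroma. In the hedgehog pathway, through which Sertoli cells signal to the stroma, Ptch1, the receptor and a target gene, was at 342 and 394 CPM in members and at 281 and 313 CPM in Smoc2 stroma. Hhip, a hedgehog-binding inhibitor, was lower in members at 51.8 and 62.0 CPM against 158 and 167 CPM in Smoc2 stroma, the 1 of 11 genes past the limit, beside 2.34% of all genes. Gonadal transcription factors gave 0 of 16 higher, which is near the 2.47% of all genes, and 2 lower, Lhx9 and Maf, beside 2.34%.

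Ranked over all genes by the lowest of the 4 lower interval limits (2 classes in 2 libraries), the genes furthest above both classes were Rgs5, Tagln, Atcayos, Prkg1, Tnnt2, Akap5, Fbxl22, Actg2, Ednrb, Dner, Cdh3, Ltbp2, Myh11, Itga8 and Adamts8. Fbxl22, a sarcomere-associated F-box protein, was at 203 and 178 CPM in members against 26.2 and 20.5 CPM in Smoc2 stroma, and its promoter was among the 10 with a CArG box. Tnnt2, cardiac troponin T, was at 108 and 70.2 CPM against 9.40 and 7.41 CPM. Dner, a Notch-related surface protein, was at 104 and 82.8 CPM against 13.9 and 11.2 CPM, and Cdh3, P-cadherin, at 18.2 and 17.1 CPM against 1.52 and 1.41 CPM. Ltbp2, a microfibril-associated protein, was at 29.1 and 29.9 CPM against 1.24 and 2.59 CPM. In thinned data, 26.8% and 19.2% of members held an Ednrb UMI (37.9% and 27.2% before thinning), against 0.172% and 0.138% of Sertoli barcodes.

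Rgs5, a marker of pericytes and other vascular mural cells, led this ranking at 11.1 and 6.36 CPM in members but rested on few barcodes. All 212 Rgs5 UMIs of control members lay in 8 barcodes and all 131 of Cnot3-cKO members in 3. Members with 10 or more UMIs of a 10-gene mural list numbered 7 in control and 8 in Cnot3-cKO, and the other members held Rgs5 at 0.158 CPM in control, from 3 UMIs, and with 0 UMIs in Cnot3-cKO. In those 7 and 8 barcodes Acta2 was at 3337 and 2535 CPM and Col4a4 at 567 and 599 CPM, against 1537 and 1560.2 CPM of Col4a4 in the remaining members. The mural list summed to 106 and 104 CPM in members, 72.7 and 73.5 CPM in Smoc2 stroma and 89.5 and 82.1 CPM in Cd34 stroma. Tagln and Myh11 outside the mural barcodes were at 569 and 544 CPM and at 345 and 375 CPM.

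Of the other cell types a stromal gate could hold, the Leydig list of 9 genes summed to 199.8 and 193 CPM in members, 235 and 241 CPM in Smoc2 stroma and 180.1 and 183 CPM in Cd34 stroma. Most of this came from the cholesterol receptor gene Scarb1, at 132 and 123 CPM in members and 42.6 and 47.9 CPM in Cd34 stroma, and from Fdx1, a mitochondrial electron carrier gene, at 64.2 and 65.9 CPM. Hsd3b6 and Insl3 were at 0 UMIs in members of both libraries, and Hsd3b1 was at 0.105 and 0.0971 CPM against 15.2 and 17.1 CPM in Smoc2 stroma. The macrophage list summed to 2.46 and 17.0 CPM, the endothelial list to 22.4 and 31.7 CPM, mostly through Cdh5 at 13.1 and 16.2 CPM, and the Sertoli list of 10 genes to 75.2 and 98.0 CPM against 4692 and 4676 CPM in Sertoli barcodes. Of the 350 macrophage UMIs of Cnot3-cKO members, 290 came from 1 barcode. Of their 654 endothelial UMIs, 62 came from 1 barcode. The sort marker Thy1 was at 0.157 and 0.0485 CPM in members, from 3 UMIs and 1 UMI, and Cd9 at 30.7 and 25.1 CPM, below its 126 and 142 CPM in germ cell barcodes. The part of these cell types and of the sort in the results was not tested.

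The genes furthest below both classes were Adam12, S100b, Sbspon, Efemp1, Aqp2, Cldn23, Nrg1, Pgr, Tfcp2l1 and the unnamed transcript RP24-136L4.6. Adam12, a metalloprotease, was at 2.30 and 3.20 CPM in members against 40.4 and 46.3 CPM in Smoc2 stroma and 62.5 and 69.1 CPM in Cd34 stroma. S100b, a calcium-binding protein also known from glia, was at 4.92 and 5.29 CPM against 74.0 and 71.4 CPM and 157 and 163 CPM, and Efemp1, a fibulin, at 1.36 and 1.46 CPM against 17.9 and 19.1 CPM and 92.0 and 92.3 CPM. These 3 genes were lower in members in both libraries by similar factors.

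Between genotypes, the members made up 38.7% of non-cycling stromal barcodes in control (37.1% to 40.4%) and 41.4% in Cnot3-cKO (39.8% to 43.1%). The sort and the merging of samples could set such a share, and neither was tested. S100a6, a gene of the Cd34 score, was at 384 CPM in control and 217 CPM in Cnot3-cKO members, and with the scores scaled within each library the shares were 38.8% and 41.3%. At 12000 UMIs or more they were 42.1% and 44.6%.

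Gene levels of the members were close between genotypes. Over 11098 genes with at least 100 UMIs the median log2 ratio of Cnot3-cKO over control was -0.01, and 5% of genes lay below -0.32 and 5% above 0.36. At least 2-fold higher in Cnot3-cKO were 60 genes (0.541%) and at least 2-fold lower 10 (0.0901%). The contractile list had a median of -0.07 with 1 of 24 genes past 2-fold, Synm. Myh11 had a log2 ratio of 0.12, Tagln of -0.07 and Gdnf of 0.18. A set of 8 control and 67 Cnot3-cKO barcodes, chosen after seeing the data, is described further on. Without it, Tagln had a log2 ratio of -0.49 (-0.53 to -0.44) and Actg2 of -0.51 in place of -0.09. Myh11 then had 0.11 and the list median was -0.07. The 67 barcodes were rich in Tagln and Actg2, so leaving them out lowered both ratios by construction. Nothing is read from these 2 values about the genotype. Acta2 was lower in Cnot3-cKO by a log2 ratio of -0.31, with -0.24 in Smoc2 stroma and -0.32 in Cd34 stroma. It is a gene of the myoid score that split these classes, so its ratios carry no further weight. The 11 genes of the CCR4-NOT list had a median of -0.02 and none passed 2-fold. Whether these differences exceed the spread between animals cannot be told from 1 library per genotype.

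Immediate early genes, which respond within minutes to stimulation or to tissue dissociation, were higher in the Cnot3-cKO members. Of 14 listed genes with enough UMIs, 8 were at least 2-fold higher, against 0.541% of all genes, with a median log2 ratio of 1.11. Fos, on chromosome 12 (85473890 to 85477273), was at 120 CPM in control members and 663 CPM in Cnot3-cKO members, a log2 ratio of 2.46 with an interval of 2.40 to 2.53. After thinning, 35.4% of control members and 70.4% of Cnot3-cKO members held a Fos UMI (45.8% and 75.4% before thinning), so that the difference was spread over many members. Fosb was at 57.9 and 281 CPM, Junb at 191 and 564 CPM, Zfp36 at 22.8 and 85 CPM and Socs3 at 17.0 and 68.2 CPM, whereas Ctgf was at 320 and 254 CPM.

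The same direction was seen outside the myoid cells. Fos was at 126 and 545 CPM in Smoc2 stroma, at 67.9 and 310 CPM in Cd34 stroma and at 125 and 422 CPM in empty barcodes. The medians of the 14 genes were 1.13 in Smoc2 stroma, 0.97 in Cd34 stroma and 0.22 in Sertoli barcodes. The 2 samples of a genotype are merged, and whether they were separate libraries or sequencing runs of 1 library was not settled here, so genotype and handling cannot be told apart for these genes. Btg2, an antiproliferative gene of the list, was in addition higher in members than in both other classes, at 413 and 951 CPM against 141 and 408 CPM in Smoc2 stroma and 43.8 and 96.4 CPM in Cd34 stroma.

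The genes with the highest lower interval limits for Cnot3-cKO over control were Fam180a, RP23-85B15.5, Cldn5, Angptl7, Pf4, Ramp1, Fos and Igfbp3. RP23-85B15.5, a long noncoding RNA on chromosome 7 (19298260 to 19300770), was at 0.366 CPM in control and 12.6 CPM in Cnot3-cKO members, and at 1.73 and 14.2 CPM in Smoc2 stroma and 0.0688 and 6.28 CPM in Cd34 stroma. The immediate early gene Fosb lies near it on the same strand (19302696 to 19310051), and whether the counts of both genes are separate was not tested. Fam180a, a secreted protein gene, had 1 UMI in control and 107 in Cnot3-cKO members, a log2 ratio of 6.63 with an interval of 4.12 to 11.95. Igfbp3, which binds insulin-like growth factors, was at 7.43 and 41.0 CPM. Cldn5, a claudin of endothelial tight junctions, had 98 UMIs in Cnot3-cKO members, of which 96 came from 1 barcode, and Pf4, a platelet and macrophage chemokine, had 101, of which 90 came from 1 barcode. Without 3 Cnot3-cKO members that held 10 or more endothelial or macrophage UMIs, a set chosen after seeing the data, Cldn5 had a log2 ratio of -0.69.

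The genes with the lowest upper limits were Uchl1, Fgfr1, Clasrp, S100a6, Tagln2, RP23-366E4.5, Nnat and Idi1. Fgfr1, a fibroblast growth factor receptor, was at 87.7 and 44.2 CPM in members, at 89.1 and 44.4 CPM in Smoc2 stroma and at 146 and 74.8 CPM in Cd34 stroma, with log2 ratios of -0.99, -1.0 and -0.97, and of -1.07 in Sertoli barcodes. Clasrp, a regulator of splicing, was at 36.2 and 17.8 CPM in members and at 37.9 and 18.1 CPM in Smoc2 stroma. Idi1, an enzyme of cholesterol synthesis, was at 18.3 and 9.85 CPM in members and at 21.8 and 17.3 CPM in Smoc2 stroma. Fgfr1 and Clasrp thus had like ratios in all these classes, and Idi1 had -0.89 in members and -0.03 in Sertoli barcodes.

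**Figure D4:**
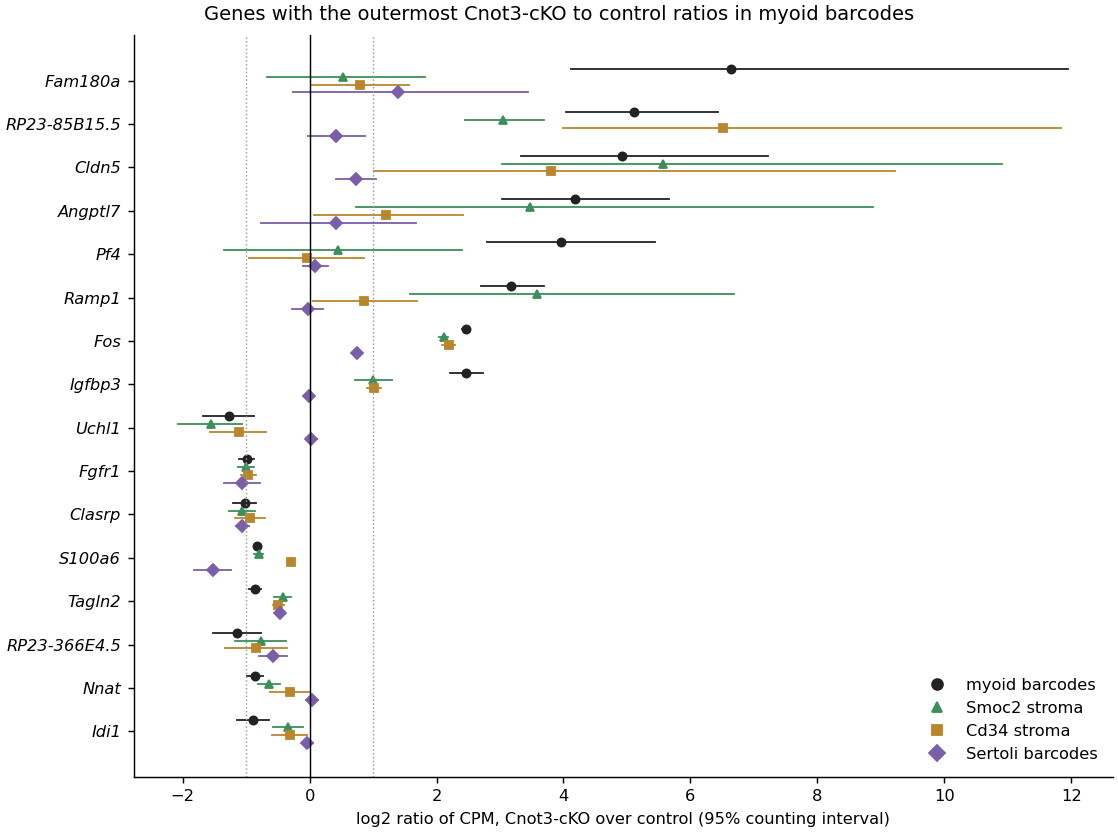
Log2 ratio of CPM of Cnot3-cKO over control (horizontal axis) for the 16 genes named by the interval rule (rows), in members, in both other stromal classes and in Sertoli barcodes, with 95% counting intervals as lines. Dotted lines mark 2-fold. Fos, Fgfr1 and Clasrp sit on the same side of 0 in every class drawn, and Fam180a, RP23-85B15.5 and Cldn5 sit furthest right in members.

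Many of the genes that were higher in Cnot3-cKO members were no longer past 2-fold without a small set of barcodes. Members with 3 or more UMIs of Fam180a, Ramp1, Adam33, Pamr1 and Angptl7, a set of genes chosen after their values were seen, numbered 8 in control (0.613%) and 67 in Cnot3-cKO (4.44%), and 0 of them were called doublets. Fam180a, Ramp1 and Angptl7 were among the 8 genes named above as higher in Cnot3-cKO. The larger number in Cnot3-cKO and the lower counts without these barcodes thus follow in part from the choice. Without them, 23 genes were at least 2-fold higher in Cnot3-cKO, of which 22 were among the 60, and 11 were at least 2-fold lower, of which 7 were among the 10. Igfbp3 then had a log2 ratio of 0.30, while Fos had 2.49. Ramp1, which was used to pick the barcodes, had -1.22 by construction. Of the listed genes outside the immediate early list, Synm, Kcnma1, Postn, Col12a1, Igfbp3, Rspo1, Pdgfc, Wt1, Gata6 and Inhbb were past 2-fold with these barcodes, and without them their log2 ratios were 0.63, 0.55, 0.33, 0.06, 0.30, 0.03, 0.63, 0.22, 0.16 and 0.55.

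The 67 barcodes held more of some smooth muscle genes and less of some other member genes. The genes below do not stand for the whole contractile list, whose median genotype ratio was -0.07 with and without the 5-gene barcodes. Without those barcodes, Tnnt2 had a genotype log2 ratio of -0.57 in place of -0.62, and Prkg1 had 0.32 in place of 0.30. Tagln was at 4252 CPM in them and at 402 CPM in the other 1441 Cnot3-cKO members, Cnn1 at 134 against 9.03 CPM and Actg2 at 101 against 9.68 CPM. Acta2 was at 3225 against 2126 CPM and Myh11 at 428 against 373 CPM. Among the genes of the myoid score, Acta2 was thus higher in them, whereas Mgp was at 1109 against 2716 CPM and Col4a4 at 573 against 1593 CPM. Lamc3 was at 19.4 against 384 CPM, the hedgehog receptor gene Ptch1 at 32.3 against 408 CPM and Cyp26b1, which breaks down retinoic acid, at 12.9 against 140 CPM. Wt1 and Gata6, transcription factor genes of the gonad and its coelomic surface, were at 196 against 3.73 CPM and 159 against 3.48 CPM.

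The 67 barcodes had a median of 11127 UMIs against 13328 in the other members, and a median myoid score of 1.32 against 1.82. The same 5-gene threshold picked 35 control (3.13%) and 37 Cnot3-cKO (3.91%) barcodes of Cd34 stroma and 3 (0.317%) and 7 (0.591%) of Smoc2 stroma. In the 8 control members so picked, Tagln was at 2313 CPM but Osr2, a transcription factor gene, at 292 CPM, against 31.0 CPM in the 67, and Wt1 at 14.6 CPM, so that they were unlike the 67 in these genes, with 2 Wt1 UMIs behind the last value. The label of peritubular myoid cells therefore fits the 67 barcodes less well than the others, and they are called here by their genes only. They lay inside 1 merged library, and whether they came from 1 of its 2 samples was not tested.

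**Figure D5:**
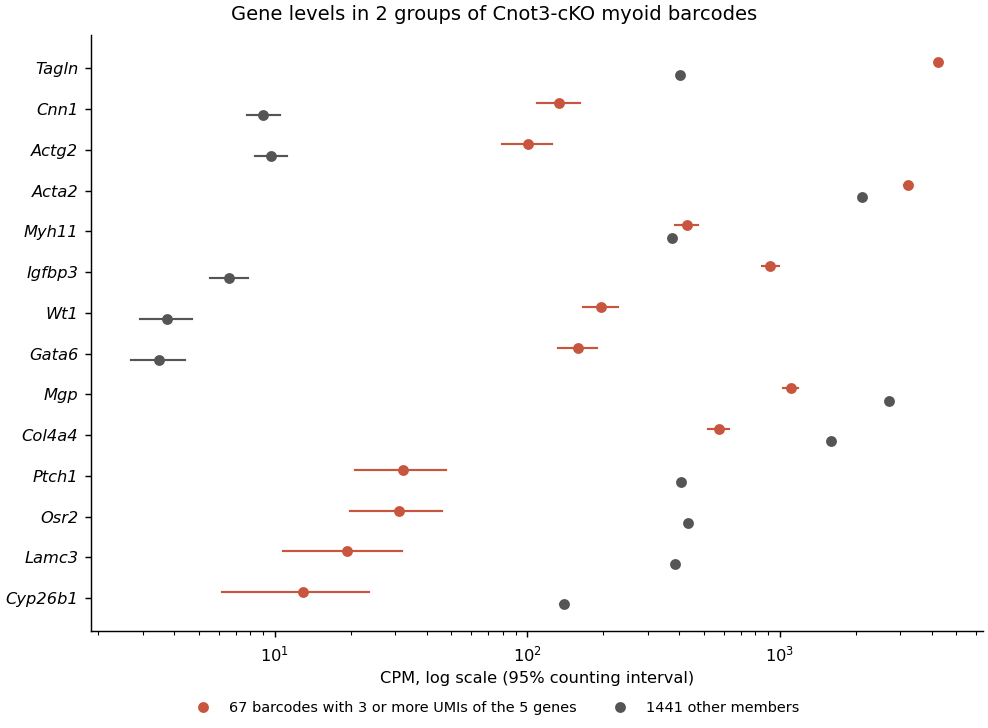
CPM (log scale, with 95% counting intervals) of 14 genes in 67 Cnot3-cKO members with 3 or more UMIs of the 5 genes (red) and in the other 1441 Cnot3-cKO members (grey). Tagln, Cnn1, Actg2, Igfbp3, Wt1 and Gata6 were higher in the 67, and Mgp, Col4a4, Ptch1, Osr2, Lamc3 and Cyp26b1 lower.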

How the data were processed

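UMI counts per gene and barcode were deposited by the authors in 1 matrix per genotype, each merging 2 samples and listing all barcodes. The authors made them with Cell Ranger 3.0.1, mm10 and Ensembl 93 per the file headers and the submitters' processing notes. The matrices held 181550221 UMIs in control and 168770743 in Cnot3-cKO, and 8335 and 9232 barcodes had 8000 or more. The study states fewer cells per genotype. Counts are 3′ tags. The strand setting of the counting is not given by the sources read for this work.

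Counts were summed over barcodes of a class and divided by the summed UMIs (CPM). Shares have exact Clopper-Pearson intervals, levels exact Poisson intervals and log2 ratios exact conditional intervals. No test was made, since each genotype is 1 library. A gene entered a contrast with 100 or more UMIs. Barcodes were thinned at random to 8000 UMIs. Scrublet was run in scanpy 1.11.5, and its calls stayed in. Free RNA came from barcodes of at most 100 UMIs. The ratio step was tested on simulated counts. Genes were placed on GRCm38 with GENCODE M21, which held 99.8% of the identifiers without version. Named genes were the 15 with the highest minimum of the 4 lower interval limits and the 10 with the lowest maximum of the 4 upper limits between classes, 8 each way between genotypes, list members and Cnot3. Members, lists and this rule were chosen with earlier results of these data known, and sets of barcodes within the members after seeing their values.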

Additional observations from a re-analysis of the deposited data

How the results depend on the processing

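No paired analysis was possible because both samples of a genotype are merged in 1 matrix, and leaving out a sample was impossible for the same reason. Alternatives were a limit of 12000 UMIs, 10% mitochondrial UMIs, upper bounds on UMIs and genes, doublets left out, a myoid score at least 2 times the next, a score without Acta2, scores scaled within libraries, barcodes of 2 or more mural UMIs left out, a stricter Sertoli limit, free RNA subtracted, median-ratio scaling, means over barcodes and other gene minimums. Leaving out the barcodes of the 5 genes, those of 10 or more mural UMIs and those of 10 or more endothelial or macrophage UMIs was chosen after seeing the data. Of the main results, 175 values moved little and 19 moved more, and of named genes 624 and 62, with 4 reversed.

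The share of members was 42.1% in control and 44.6% in Cnot3-cKO at 12000 UMIs and 25.3% and 25.7% with a score at least 2 times the next. The contractile median over Smoc2 stroma was 1.53 in Cnot3-cKO with the latter, and in control 1.43 at 12000 UMIs and 1.35 without Acta2 in the score. Over Cd34 stroma it was 1.36 in control and 1.25 in Cnot3-cKO without Acta2, and 1.32 in control without barcodes of 2 or more mural UMIs, which also gave a genotype median of -0.0043. Genes at least 2-fold higher in Cnot3-cKO numbered 39 without Acta2 in the score, 23 without the barcodes of the 5 genes, 104 at a minimum of 50 UMIs per gene and 39 at 200. Those lower numbered 5 at 12000 UMIs, 6 without barcodes of 2 or more mural UMIs, 24 at 50 and 5 at 200. Cldn5 turned to -1.04 with a score at least 2 times the next, to -0.74 without barcodes of 2 or more mural UMIs and to -0.69 without 3 barcodes rich in endothelial or macrophage UMIs, and Ramp1 to -1.22 without the barcodes of the 5 genes. Leaving out barcodes that hold a gene's UMIs accounts for the last 2 by construction, and otherwise the cause was not tested.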
